A study of Mus musculus with 2 samples.

Results

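Semaphorins are secreted or membrane-bound guidance proteins that steer growing axons and dendrites, and they act through plexins, a family of transmembrane receptors. Most class 3 semaphorins are secreted and need a neuropilin, Nrp1 or Nrp2, as the binding partner that sits beside a plexin. Semaphorins of classes 4 to 7 mostly bind plexins directly. In the olfactory system these genes are best known for guiding sensory axons and for arranging the axons of mitral and tufted cells, the projection neurons of the bulb. The set described here holds 31 genes of the 31055 rows in the deposited tables, taken by name alone: 20 semaphorins (*Sema3a* to *Sema7a*), 9 plexins and the neuropilin genes *Nrp1* and *Nrp2*.

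Nuclei came from the olfactory bulbs of adult WT mice whose anterior olfactory nucleus (AON) or posterior piriform cortex (pPCx) had received retroAAV-CAG-H2B-GFP. This virus is carried backwards from axon endings and makes a green nuclear protein from a promoter that is active in most cell types. Sorted nuclei gave 1 library of 10x Genomics 3' single-nucleus RNA-seq for each injection site. According to the study's methods the pPCx library came from a single mouse, and the AON library is known from its labels alone. Counts are unique molecular identifiers (UMIs), each standing for 1 captured RNA molecule, and levels are UMIs scaled to a library sum of 1000000 (CPM).

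With 1 library per group, no test between groups was possible, and every interval is a 95% interval that covers counting error only. The libraries shared 0 barcodes. They also differed in sex-linked genes (*Xist*, 2 UMIs for AON and 1782 for pPCx, and *Eif2s3y*, 423 and 0), so injection site, animal, sex and preparation cannot be told apart. Nuclei with 1000 or more genes were kept. A nucleus with at least 3 UMIs of *Slc17a7*, *Slc17a6*, *Tbx21* and *Cdhr1*, and more of them than of *Gad1*, *Gad2* and *Slc32a1*, was taken as a projection neuron, and the reverse as GABAergic. The AON library held 17 projection neurons, 47 GABAergic nuclei and 38 remaining nuclei, and the pPCx library held 58, 2 and 3. Projection neurons had 4505 to 274993 UMIs in the AON library (median 54982) and 9963 to 167296 in the pPCx library (median 35262).

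The classes were checked on markers that the rule did not use. *Thy1*, *Eomes* and *Lbhd2*, markers of projection neurons, together stood at 96.7 CPM in AON and 77.2 CPM in pPCx projection neurons, and at 21.2 CPM in GABAergic nuclei of the AON library. *Meis2*, *Th* and *Calb1*, markers of GABAergic neurons, stood at 16.1, 9.05 and 3709 CPM in the same classes. Of the remaining AON nuclei, 20 had UMIs mainly of astrocyte markers and 10 of oligodendrocyte markers. The other 8 fitted neither of these glial lists. They had 81 UMIs of the full list of GABAergic markers (1585 CPM) and 14 UMIs of the full list of projection neuron markers (274 CPM). *Dcx* and *Sox11*, markers of immature neurons, had 18 UMIs there (352 CPM). Without the minimum of 3 UMIs, 25 AON and 59 pPCx nuclei would count as projection neurons. A single AON nucleus, the deepest, contributed 26.1% of that library's projection neuron UMIs, and results that turn on it are given with and without it.

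The strongest pattern in the set was carried by the neuropilins. *Nrp1* (ENSMUSG00000025810, GENCODE M21 on GRCm38, chromosome 8, 128358604 to 128503363, + strand) encodes the receptor that binds Sema3a. *Nrp2* (ENSMUSG00000025969, chromosome 1, 62703285 to 62818695, + strand) encodes the receptor that binds Sema3f. In projection neurons *Nrp2* was seen in 5 of 17 AON nuclei with 15 UMIs and in 54 of 58 pPCx nuclei with 1027 UMIs, or 14.2 CPM (7.96 to 23.5) and 443 CPM (416 to 471). *Nrp1* went the other way, seen in 15 of 17 AON nuclei with 396 UMIs and in 20 of 58 pPCx nuclei with 382 UMIs, or 375 CPM (339 to 414) and 165 CPM (149 to 182). The pPCx level of *Nrp2* was thus 31.1-fold (18.8 to 55.8) that of AON, and the AON level of *Nrp1* was 2.28-fold (1.98 to 2.63) that of pPCx. The gene *Gm29083* lies on the strand opposite *Nrp2*, and the use of strand in counting is not given in the sources used here.

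Because these receptors split the projection neurons, bases 250 to 51 before a RefSeq start of each gene (GRCm38.p6) are printed, 5′ to 3′ on the + strand, with the letters GGGCGG or CCGCCC (a GC box on either strand) in capitals. The annotations differ in where these genes begin. The *Nrp1* stretch, chr8:128358823-128359022, lies inside the span GENCODE gives the gene, in an intron of a transcript that starts earlier and is not coding, and before the start of the coding transcript. It is 66% G or C and holds 1 such match.
Nrp1: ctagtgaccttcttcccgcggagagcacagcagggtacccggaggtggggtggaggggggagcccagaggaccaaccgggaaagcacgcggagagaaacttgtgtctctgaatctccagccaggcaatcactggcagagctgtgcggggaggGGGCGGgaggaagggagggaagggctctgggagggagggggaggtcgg
The *Nrp2* stretch, chr1:62703067-62703266, lies before the gene's start in both annotations, is 75.5% G or C and holds 4 matches, a pair of which overlap.
Nrp2: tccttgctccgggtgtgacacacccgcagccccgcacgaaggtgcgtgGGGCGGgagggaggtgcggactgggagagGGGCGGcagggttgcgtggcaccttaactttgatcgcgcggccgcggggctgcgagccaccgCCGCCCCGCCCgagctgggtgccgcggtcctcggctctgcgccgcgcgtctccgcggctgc
Of 32851 RefSeq promoters cut to the same length, 24.6% hold a GC box on either strand. The palindrome CCCNNGGG, the core letters that Ebf proteins prefer, has 0 matches in each stretch and is found in 9.40% of all promoters. These are matches of letters and not shown sites of binding.

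Counting both receptors in each nucleus showed how far they excluded each other. Among the 58 pPCx projection neurons, 38 had UMIs of *Nrp2* alone, 4 of *Nrp1* alone and 16 of both, and 0 had neither. *Nrp1* was seen in 29.6% (18.0 to 43.6) of the 54 *Nrp2*-positive nuclei and in 4 of 4 *Nrp2*-negative nuclei. After each nucleus was thinned to 8000 UMIs, so that depth was equal, *Nrp1* was seen in 13.6% (5.17 to 27.4) of 44 *Nrp2*-positive nuclei and in 64.3% (35.1 to 87.2) of 14 *Nrp2*-negative nuclei. The exclusion was therefore partial over the library as a whole, which pools the groups of nuclei described next.

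The pPCx nuclei fell into groups in which the receptors differed. The transcription factor gene *Ebf1* and the adhesion gene *Cntn6* together stood at levels from 1433 CPM upward in 37 projection neurons and up to 100.4 CPM in the other 21, with none between. A line at 1000 CPM left 1 nucleus within 2-fold of it. These groups are called Ebf1/Cntn6-high and -low. Neither gene belongs to the set, but the study lists both together with *Nrp2* as specific to the same mitral cell type. With classifiers trained on its larger dataset, the study assigned most projection neurons of the pPCx library to another mitral cell type and few to this one. How that typing relates to the 37 high nuclei here was not tested. In the 37 high nuclei *Nrp2* was present in every nucleus, at 693 CPM (648 to 739) in the sum and at 23.5 to 1672 CPM in single nuclei. *Nrp1* had 8 UMIs in 2 of those 37 nuclei, or 6.14 CPM (2.65 to 12.1), and 7 of the 8 came from 1 nucleus that had 1 UMI of *Nrp2*. After thinning, 36 of 37 high nuclei had *Nrp2* and 0 of 37 had a UMI of *Nrp1*. Each group was thinned in a random draw of its own, so thinned counts of the groups do not add up to those of the library. With every UMI the *Nrp1* share was 5.41% (0.661 to 18.2).

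The 21 low nuclei did not mirror this. *Nrp1* had 374 UMIs in 18 of 21 nuclei, at 368 CPM (332 to 407), and *Nrp2* had 124 UMIs in 17 of 21, at 122 CPM (102 to 146). Both were present in 14 low nuclei, *Nrp1* alone in 4 and *Nrp2* alone in 3. After thinning, 6 low nuclei had both, 10 had *Nrp1* alone, 4 had *Nrp2* alone and 1 had neither. *Nrp1* was seen in 82.4% (56.6 to 96.2) of *Nrp2*-positive and 100% (39.8 to 100) of *Nrp2*-negative low nuclei. After thinning these shares were 60.0% (26.2 to 87.8) and 90.9% (58.7 to 99.8). The intervals overlapped, so exclusion was not shown within the low group. It could not be measured in the high group, where every nucleus had *Nrp2*. In the pPCx library *Nrp1* was thus at 0 in 35 of 37 high nuclei, whereas *Nrp2* was lower but present in most low nuclei. A single low nucleus, with 35 UMIs of *Nrp2* and 3 of *Nrp1*, held 28.2% of the *Nrp2* UMIs of the low group.

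The balance of the receptors within nuclei showed the same groups. Of nuclei with 5 or more UMIs of *Nrp1* and *Nrp2* together, *Nrp2* made up 90% or more in 34 of 35 high nuclei, and 12.5% in the other. In 18 low nuclei the *Nrp2* share ran from 0% to 100%, with 10 nuclei between 10% and 90%. In 13 AON projection neurons it ran from 0% to 47.4%, and 11 of them were at 10% or less.

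**Figure D1:**
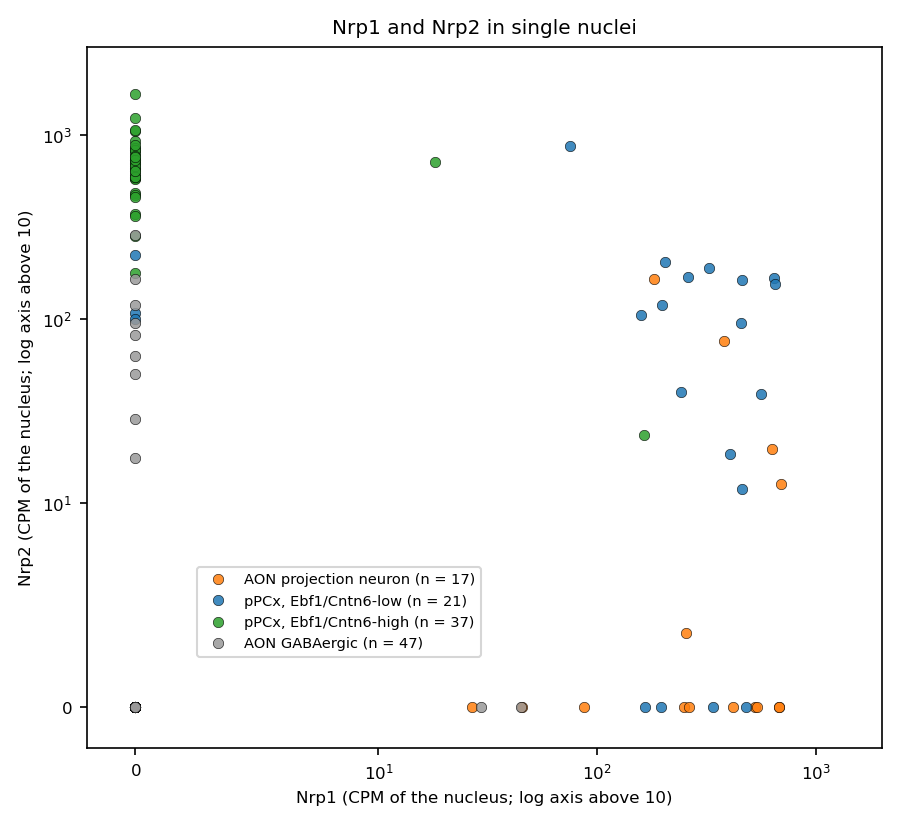
Each point is 1 nucleus, with its *Nrp1* level on the horizontal axis and its *Nrp2* level on the vertical axis, both in CPM on axes that are linear to 10 and logarithmic above. The Ebf1/Cntn6-high nuclei of the pPCx library stand on the left edge with *Nrp2* alone except for 2 nuclei, most Ebf1/Cntn6-low nuclei hold both genes, and most AON projection neurons lie on the bottom edge with *Nrp1* alone.

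AON projection neurons were *Nrp1* nuclei with little *Nrp2*. Of the 17 nuclei, 10 had *Nrp1* alone, 5 had both, 0 had *Nrp2* alone and 2 had neither. These last had 4505 and 5424 UMIs, the fewest of the class. Of the 15 *Nrp2* UMIs, 9 lay in 1 nucleus that also had 10 UMIs of *Nrp1*. One AON nucleus reached the line for *Ebf1* and *Cntn6*, at 1096 CPM, and it had 52 UMIs of *Nrp1* and 0 of *Nrp2*.

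GABAergic nuclei of the AON library had little *Nrp1*, with 2 UMIs in 47 nuclei (median depth 26129 UMIs), a share of nuclei of 4.26%, or 2.22% after thinning. The gene was 239-fold (65.6 to 1977) higher in AON projection neurons than in these nuclei. *Nrp2* had 26 UMIs in 9 of the 47 nuclei, or 20.5 CPM, against 14.2 CPM in AON projection neurons, a difference within counting error, and after thinning 13.3% of the nuclei of each class had it. These UMIs were spread unevenly over the GABAergic nuclei, with 8 of them in 1 nucleus at 284 CPM, and their source was not tested. In both Ebf1/Cntn6-high and GABAergic nuclei, then, the *Nrp1* level stood under 10 CPM.

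Some other members also differed between high and low nuclei of the pPCx library. Of 22 members at 10 or more UMIs, 2 (9.09%), *Nrp2* and *Plxna1*, were at least 2-fold higher in high nuclei. That share was below the 12.3% of 12322 genes in this direction. Another 5 (22.7%) were at least 2-fold higher in low nuclei (*Nrp1*, *Sema6d*, *Plxna2*, *Plxna4* and *Sema3f*), where 6.76% of genes were. The median log2 ratio of high over low was -0.03 for the members and 0.12 for all genes. The study's lists of mitral cell types were drawn from other nuclei. They place *Nrp2* in the same list as *Ebf1* and *Cntn6*, and *Sema6d* in the list of another type. The split of *Nrp2* and *Sema6d* is therefore not independent of the choice of *Ebf1* and *Cntn6*.

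*Sema6d* (ENSMUSG00000027200, chromosome 2, 124089969 to 124667770), a membrane-bound ligand of Plxna1, was the ligand that separated the groups. It had 38 UMIs in 22 of 37 high nuclei and 779 UMIs in all 21 low nuclei, or 29.2 CPM (20.6 to 40.0) and 767 CPM (714 to 822). Single low nuclei ranged from 201 to 1624 CPM and single high nuclei from 0 to 118 CPM, so that the observed values did not overlap. The nuclei at 201 and 118 CPM had 2 UMIs of *Sema6d* each and differed in depth, so the edge of this gap lies within counting error. The summed level was 26.3-fold (19.0 to 37.5) higher in low nuclei.

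Of the 4 A-type plexins, the partners that carry the signal of neuropilins and of class 6 semaphorins, 3 also differed, and *Plxna3* did not beyond counting error (28.4 CPM in high and 34.4 CPM in low nuclei). *Plxna2* (chromosome 1, 194618218 to 194816869), a receptor of Sema6a, was present in all 21 low nuclei at 132 CPM (111 to 156) and in 14 of 37 high nuclei at 21.5 CPM (14.3 to 31.0), a 6.14-fold difference (4.06 to 9.59). *Plxna4* (chromosome 6, 32144268 to 32588192), which pairs with Nrp1 and also binds Sema6a, stood at 287 CPM (255 to 322) in low nuclei and 87.5 CPM (72.1 to 105) in high nuclei. *Plxna1* (chromosome 6, 89316314 to 89362620) was the plexin with the opposite direction, at 12.8 CPM in low nuclei and 33.0 CPM (23.9 to 44.4) in high nuclei, 2.58-fold higher (1.36 to 5.23). The ranges of *Plxna1*, *Plxna2* and *Plxna4* over single nuclei overlapped between the groups.

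*Sema3f*, which encodes the ligand best known for Nrp2, had 9 UMIs in high and 20 UMIs in low nuclei, 2.85-fold (1.24 to 7.11) higher in the low group. The other class 3 ligands differed less. *Sema3a* stood at 832 CPM in high and 569 CPM in low nuclei, *Sema3e* at 223 and 123 CPM, and *Sema3d* at 107 and 190 CPM. Of the class 5 and 6 genes, *Sema5a* stood at 361 and 184 CPM and *Sema6a* at 581 and 456 CPM. *Sema7a* had 0 UMIs in high and 7 in low nuclei. The remaining 10 members above the minimum were within 2-fold and their intervals included equality. Astrocyte markers stood at 296 CPM in high and 90.5 CPM in low nuclei, of which *Slc1a2* gave 291 and 84.6 CPM, while the other 4 markers stood at 0 to 2.95 CPM. Their part in these differences was not tested.

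**Figure D2:**
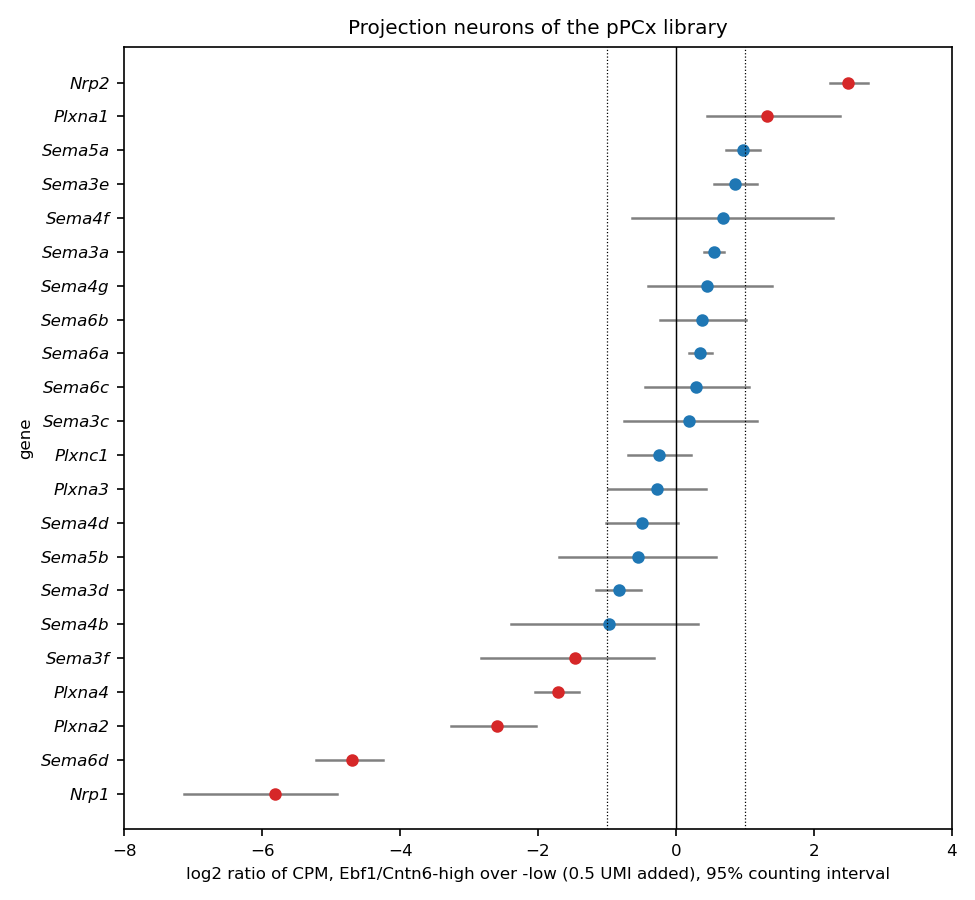
Points give the log2 ratio of summed CPM in Ebf1/Cntn6-high over Ebf1/Cntn6-low projection neurons of the pPCx library for the 22 members with 10 or more UMIs, lines give the 95% counting interval, and dotted lines mark 2-fold. Red points are 2-fold or more apart: *Nrp2* and *Plxna1* lie to the right, and *Nrp1*, *Sema6d*, *Plxna2*, *Plxna4* and *Sema3f* lie to the left.

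Between the libraries, 24 members had 10 or more UMIs over both sums of projection neurons. Of these, 6 were at least 2-fold higher in the AON library, where 7.28% of 13515 genes were, and 3 were at least 2-fold higher in the pPCx library, where 13.3% of genes were. The median log2 ratio of AON over pPCx was -0.03 for the members and -0.10 for all genes. The members higher in the AON library were *Sema5b*, *Sema7a*, *Plxna2*, *Plxna4*, *Sema3c* and *Nrp1*, and those higher in the pPCx library were *Nrp2*, *Plxna1* and *Sema3e*. Without the deepest AON nucleus, the second count was 6 of 24 (25%, against 13.5% of all genes), with *Sema6d*, *Sema5a* and *Plxna3* added. The first count stayed at 6 of 24 (25%, against 9.01% of all genes).

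Among the ligands, *Sema5b* (ENSMUSG00000052133, chromosome 16, 35541145 to 35664732), a transmembrane semaphorin best known as a repellent cue, was seen in 14 of 17 AON nuclei (170 UMIs) and in 19 of 58 pPCx nuclei (30 UMIs). Its level was 161 CPM (138 to 187) against 12.9 CPM (8.73 to 18.5), a ratio of 12.5 (8.41 to 19.0). After thinning, 60.0% of 15 AON nuclei and 8.62% of 58 pPCx nuclei had a UMI, compared with 8.89% of GABAergic nuclei. Single AON nuclei ranged from 0 to 640 CPM and single pPCx nuclei from 0 to 99.6 CPM. The deepest AON nucleus had only 3 of the 170 UMIs.

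*Sema7a*, which encodes a ligand held at the membrane by a lipid anchor, was seen in 8 AON nuclei (20 UMIs) and in 4 pPCx nuclei (7 UMIs), a 6.28-fold difference (2.55 to 17.6). *Sema3c*, whose product can bind either neuropilin, was seen in 16 of 17 AON nuclei (45 UMIs) and in 29 of 58 pPCx nuclei (42 UMIs), a ratio of 2.36 (1.51 to 3.68). *Sema3e*, unusual in its class because it binds Plxnd1 without a neuropilin, stood at 88.2 CPM in AON nuclei (93 UMIs) and 179 CPM in pPCx nuclei (416 UMIs), 2.03-fold higher in the latter (1.62 to 2.58). Its ratio lay at the 2-fold line, and 34.4% of its AON UMIs came from the deepest nucleus.

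Among the receptors, *Plxna2* stood at 285 CPM (254 to 319) in AON and 69.8 CPM (59.5 to 81.5) in pPCx projection neurons, and *Plxna4* at 466 CPM (426 to 509) and 175 CPM (158 to 193). *Plxna1* went the other way, with 4 UMIs over the AON nuclei and 56 over the pPCx nuclei, 6.37-fold higher in the latter (2.35 to 24.2). *Plxna4* and *Plxna1* have antisense or other genes on the opposite strand (*Plxna4os1* to *Plxna4os3* and *Gm26811*), as do *Sema6d*, *Sema3e*, *Sema5a* and *Plxnb1*.

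**Figure D3:**
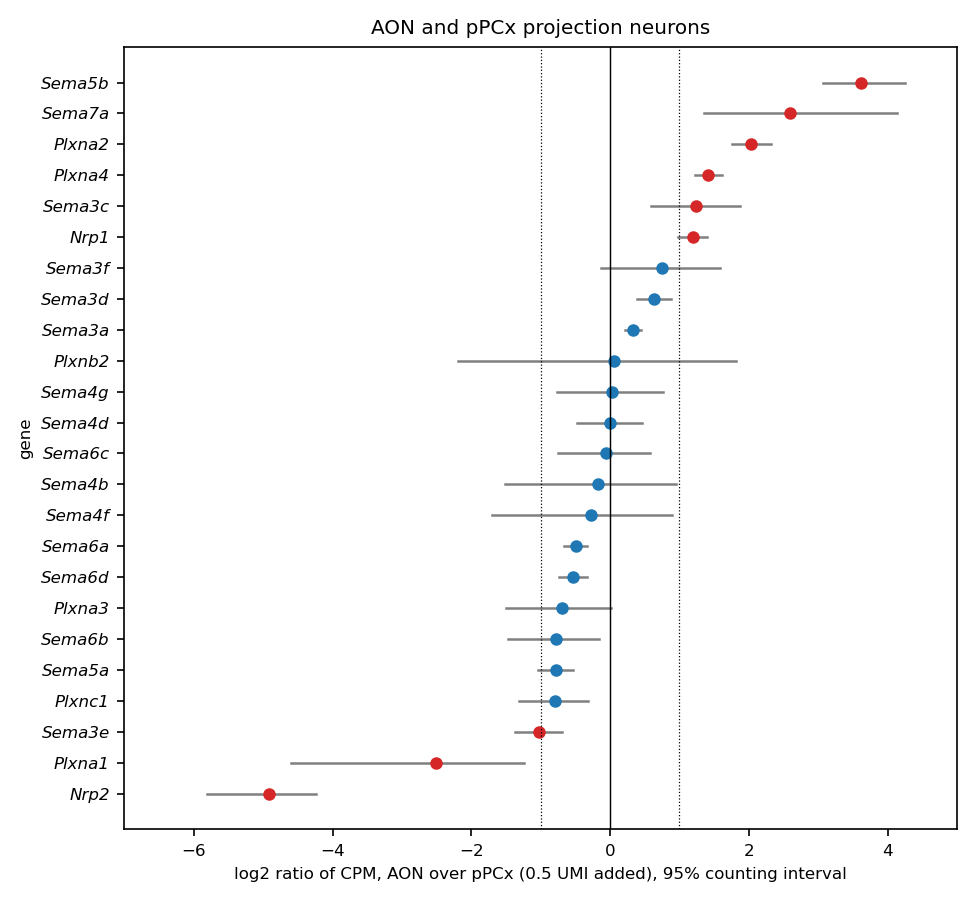
Points give the log2 ratio of summed CPM in AON over pPCx projection neurons for the 24 members with 10 or more UMIs, lines give the 95% counting interval, and dotted lines mark 2-fold. Red points are 2-fold or more apart, with *Sema5b* at 3.62 at one end and *Nrp2* at -4.91 at the other.

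The other 15 members were within 2-fold between the libraries. *Sema3a* (ENSMUSG00000028883, chromosome 5, 13125414 to 13602565), which encodes the ligand of Nrp1, stood at 899 CPM (842 to 958) in AON and 717 CPM (682 to 752) in pPCx projection neurons, and was present in 17 of 17 and 54 of 58 nuclei. *Sema6a*, a ligand of Plxna2 and Plxna4, stood at 373 and 526 CPM, and *Sema3d*, a class 3 ligand, at 222 and 143 CPM. *Sema5a*, a transmembrane ligand of A-type plexins, stood at 165 and 284 CPM, and *Plxnc1*, the receptor of Sema7a, at 41.7 and 72.9 CPM. *Sema6d* stood at 244 and 352 CPM, but 70.8% of its AON UMIs lay in the deepest nucleus and its AON level without that nucleus was 96.2 CPM. *Sema6b* stood at 24.6 and 42.7 CPM, outside counting error. The intervals of *Sema3f*, *Plxna3*, *Sema4b*, *Sema4d*, *Sema4f*, *Sema4g*, *Sema6c* and *Plxnb2* included equality. The closest of these was *Sema4d*, with 55.0 CPM for AON and 55.2 CPM for pPCx.

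Because 37 of the 58 pPCx projection neurons were Ebf1/Cntn6-high, the AON nuclei were also set against the 21 Ebf1/Cntn6-low nuclei alone. This option was added after the data had been seen, and the part of this makeup in the differences was not tested. *Nrp1* then stood at 375 CPM against 368 CPM, a log2 ratio of 0.03 (-0.18 to 0.24), and *Plxna4* came within 2-fold at 466 against 287 CPM. Of 23 members, 4 (17.4%, against 9.46% of all genes) were at least 2-fold higher in AON nuclei. Higher AON levels were still found for *Sema5b*, 10.2-fold (6.12 to 18.3), and for *Plxna2*, 2.16-fold (1.76 to 2.67). The others were *Sema3c* (42.7 against 16.7 CPM) and *Sema7a* (19.0 against 6.89 CPM). In low nuclei 3 members (13.0%, against 8.72% of all genes) were at least 2-fold higher, *Nrp2*, *Sema6d* and *Plxna1* (12.8 against 3.79 CPM). *Nrp2* was still 8.58-fold (5.01 to 15.8) higher in the pPCx low nuclei, and *Sema6d* was 3.15-fold (2.73 to 3.64) higher there, or 7.97-fold (6.29 to 10.2) without the deepest AON nucleus. That nucleus had *Sema6d* at 662 CPM, and the other 16 AON nuclei ranged from 0 to 241 CPM.

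**Figure D4:**
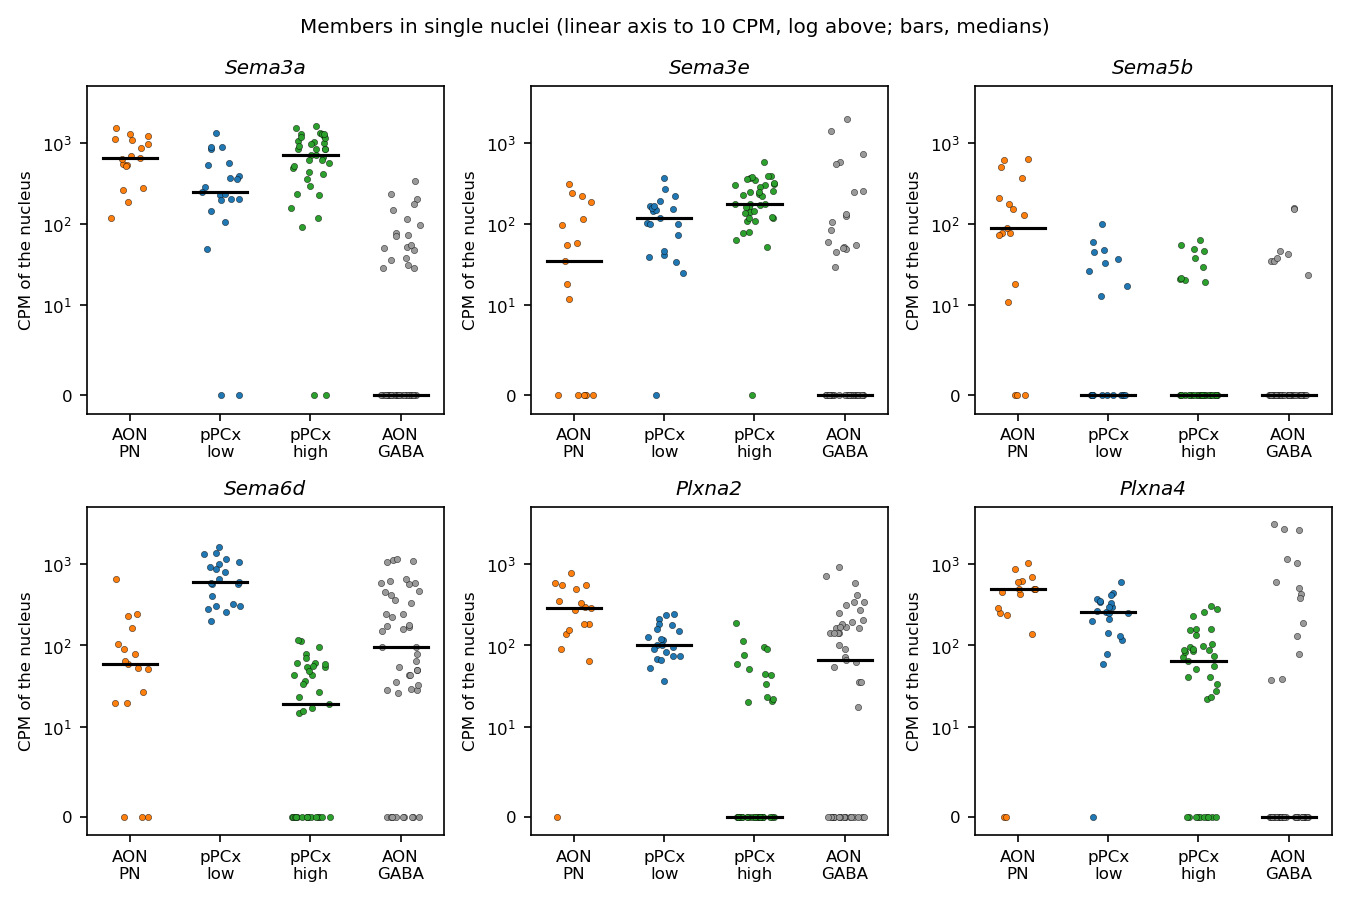
Each point is 1 nucleus, with its level in CPM on an axis that is linear to 10 and logarithmic above, for 6 members in AON projection neurons, Ebf1/Cntn6-low and -high projection neurons of the pPCx library and AON GABAergic nuclei, with bars at the medians. The observed *Sema6d* values do not overlap between the low and high nuclei, though the nuclei nearest the gap had 2 UMIs each. *Sema5b* is highest in AON projection neurons, and *Sema3a* is high in all projection neuron groups.

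Projection neurons were then set against GABAergic nuclei within the AON library. Of 24 members, 12 were at least 2-fold higher in projection neurons, where 15.9% of 12093 genes were, and 3 were at least 2-fold higher in GABAergic nuclei, where 18.5% of genes were. The median log2 ratio was 0.88 for the members and -0.08 for all genes. After thinning to 8000 UMIs, 5 members were counted in the first direction. Without the deepest AON nucleus the second count was 6, with *Sema6d* (log2 ratio -1.38), *Sema5a* (-1.44) and *Sema3e* (-1.12) added. The shares of all genes under these options are not given here, so the counts of 5 and 6 have no background beside them.

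Of the class 3 ligands, *Sema3a*, *Sema3d* and *Sema3f* were higher in projection neurons, as was *Nrp1*. *Sema3a* stood at 899 CPM in projection neurons and 44.1 CPM (33.3 to 57.2) in GABAergic nuclei, a 20.4-fold difference (15.6 to 27.2), and single nuclei ranged from 118 to 1531 CPM and from 0 to 342 CPM. The few GABAergic nuclei of the pPCx library did not show this gap. There *Sema3a* stood at 553 CPM, with all 33 UMIs in 1 nucleus, against 717 CPM in pPCx projection neurons. *Sema3d* stood at 222 and 11.0 CPM, a 20.1-fold difference (11.8 to 37.4). *Sema3f* had 22 and 2 UMIs, a ratio of 13.3 (3.26 to 116). *Sema5b* stood at 161 and 13.4 CPM, a ratio within 7.31 to 21.2, and *Plxna4* was 2.76-fold and *Plxna2* 2.16-fold higher. The *Plxna4* UMIs of GABAergic nuclei were uneven, with 61 of 215 in 1 nucleus. Single GABAergic nuclei reached 3119 CPM of *Plxna4*, above the highest projection neuron of the AON library (1038 CPM). *Plxna3*, *Sema7a*, *Sema6c*, *Sema6b* and *Sema4g* were 2.52-fold (*Sema4g*) to 6.02-fold higher, from 20 to 29 UMIs in projection neurons. With *Nrp1*, described above, these make up the 12.

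The opposite direction was taken by *Sema3c*, *Sema4a* and *Plxnb1*. *Sema3c* stood at 42.7 CPM in projection neurons and 166 CPM (144 to 190) in GABAergic nuclei, where 41 of 47 nuclei had a UMI and 30.8% of the UMIs lay in 1 nucleus. *Sema4a*, a transmembrane ligand, had 0 and 31 UMIs, at least 8.58-fold higher in GABAergic nuclei. *Plxnb1*, the receptor of Sema4d, had 1 and 9 UMIs, a ratio of 7.47 (1.03 to 327), and its direction turned (log2 ratio of projection neurons over GABAergic nuclei 0.33) without the minimum of 3 UMIs for a projection neuron. *Sema3e* stood at 171 CPM in GABAergic nuclei, but in 18 of 47 nuclei only, with 38.1% of the UMIs in 1 of them.

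Against the remaining 38 AON nuclei, 10 of 26 members were at least 2-fold higher in projection neurons, where 17% of 11312 genes were, and 7 were at least 2-fold higher in the remaining nuclei, where 25.4% of genes were. The first were *Sema3a*, *Sema3d*, *Sema3e*, *Sema3f*, *Sema4g*, *Sema6b*, *Sema6c*, *Nrp1*, *Plxna2* and *Plxna4*, and the second were *Sema4a*, *Sema4b*, *Sema6d*, *Plxnb1*, *Plxnb2*, *Plxnb3* and *Plxnc1*. After thinning to 8000 UMIs the first count was 6, and the share of all genes under thinning is not given here. The members' median log2 ratio was 0.39, and that of all genes was -0.25.

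*Plxnb3* and *Plxnb1* were found mainly in nuclei with glial markers. *Plxnb3* (chromosome X, 73757090 to 73772514), known as the plexin of oligodendrocytes, had 65 UMIs in 8 of 10 oligodendrocyte-marker nuclei, at 334 CPM (258 to 425), and 0 UMIs in AON projection neurons and in GABAergic nuclei, at least 117-fold higher than in projection neurons. *Plxnb1* (chromosome 9, 109095389 to 109119917) had 47 UMIs in 17 of 20 astrocyte-marker nuclei, at 159 CPM (117 to 211), against 1 UMI in projection neurons, a ratio of 167 (28.6 to 6748). *Sema6d* was also high in these nuclei. It stood at 2133 CPM (1969.8 to 2306) in astrocyte-marker nuclei, where all 20 had it, and at 662 CPM in oligodendrocyte-marker nuclei, where 9 of 10 had it. *Sema5b* stood at 202 CPM (155 to 261) in astrocyte-marker nuclei and *Sema4d*, the ligand of Plxnb1, at 159 CPM in oligodendrocyte-marker nuclei. *Plxnc1* stood at 159 CPM in astrocyte-marker nuclei, and *Sema4b* at 70.9 CPM.

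Astrocyte and oligodendrocyte marker lists stood at 105 and 94.8 CPM in AON projection neurons, and at 5805 and 14116 CPM in the nuclei named for them. The part of glial RNA in the projection neuron values was not tested.

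**Figure D5:**
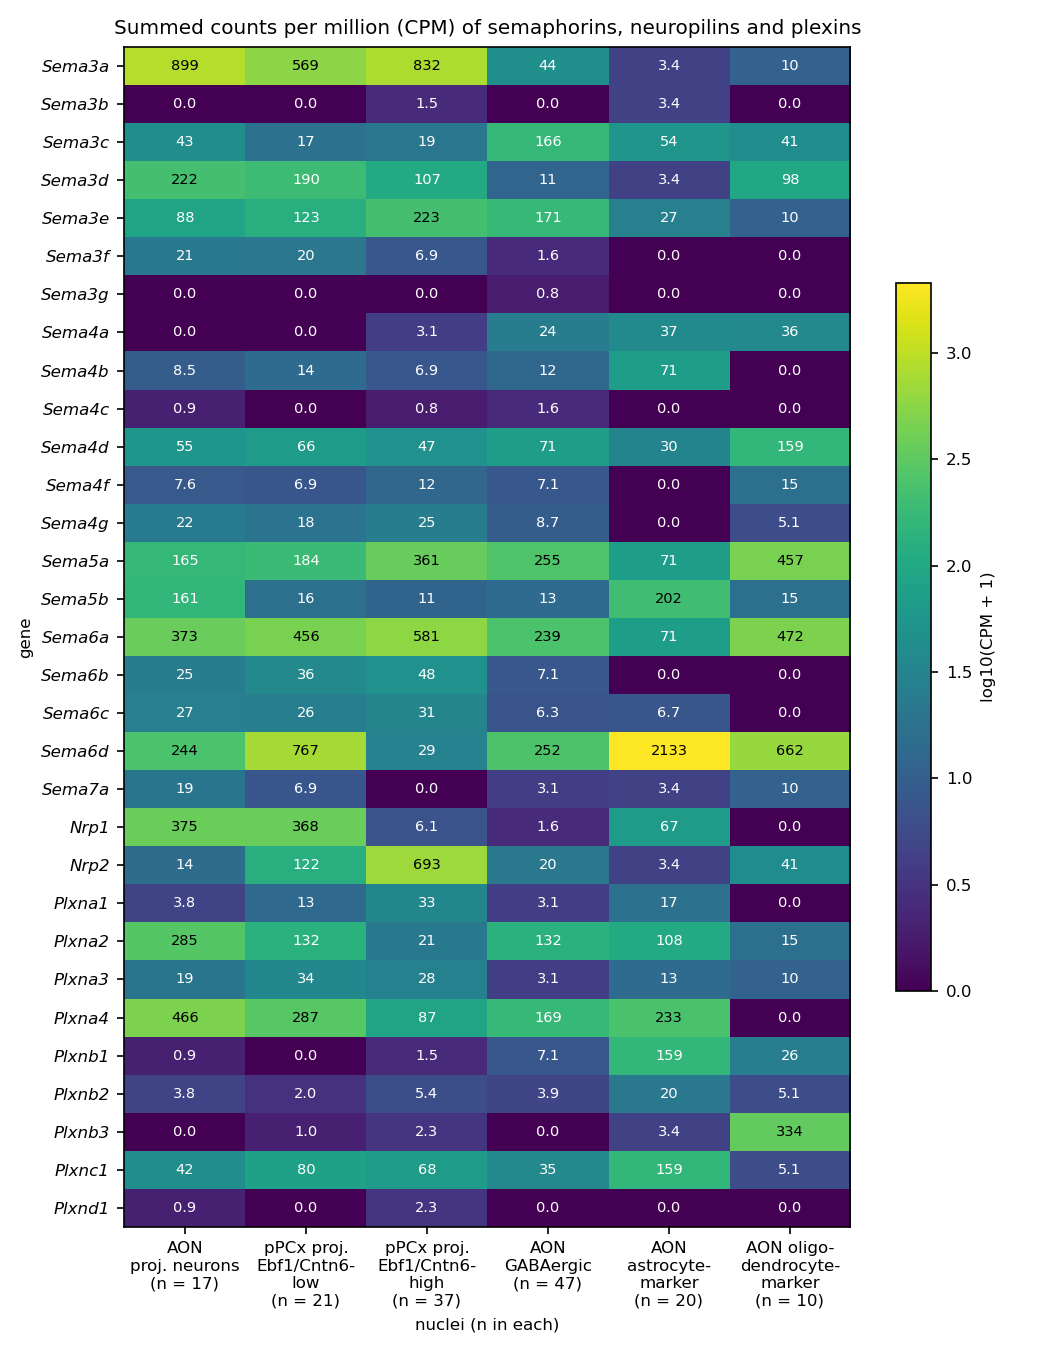
Colour gives log10(CPM + 1) of each of the 31 members (rows) in 6 groups of nuclei (columns), and the printed number is the summed CPM. Values are meant to be compared along a row, because how well the RNA of each gene was captured was not measured. Among these 6 groups, *Sema3a* is highest in the 3 groups of projection neurons, *Nrp2* and *Sema6d* separate those of the pPCx library, and *Plxnb1* and *Plxnb3* mark astrocyte- and oligodendrocyte-marker nuclei.

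Ligands were paired with the receptors they are known to bind, in 21 pairs. Both genes had 10 or more UMIs in 11 pairs in AON projection neurons and in 13 pairs in pPCx projection neurons. *Sema3a* and *Nrp1* were present together in 15 of 17 AON nuclei (88.2%, 63.6 to 98.5), in 18 of 21 Ebf1/Cntn6-low nuclei and in 2 of 37 Ebf1/Cntn6-high nuclei. In GABAergic nuclei 0 of 47 had both. Ligand and receptor RNA thus met in most AON and most low nuclei, whereas the high nuclei had *Sema3a* with little *Nrp1*.

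*Nrp2* met *Sema3c* in 27 of 58 pPCx projection neurons, 19 of them among the 37 high nuclei, and *Sema3f* in 16 of 58, of which 7 were high and 9 low nuclei. *Sema3f* stood at 6.90 CPM in high nuclei, *Sema3b* had 2 UMIs over all projection neurons of both libraries, and *Sema3g* had 0. *Sema3c*, the other ligand of Nrp2, was at 19.2 CPM in high nuclei and at 166 CPM in GABAergic nuclei, where *Nrp2* stood at 20.5 CPM.

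Among class 6 pairs, *Sema6a* and *Plxna4* were present together in 14 of 17 AON and 47 of 58 pPCx projection neurons, and *Sema6a* and *Plxna2* in 14 of 17 and 35 of 58. *Sema6b* and *Plxna4* were found together in 12 of 17 AON (70.6%) and 37 of 58 pPCx nuclei (63.8%). These counts use every UMI, without thinning to equal depth. *Sema6d* and *Plxna1* took opposite sides in the pPCx library, with *Sema6d* higher in low nuclei and *Plxna1* in high nuclei, and 7 of 21 low and 14 of 37 high nuclei had both. *Sema5a* and *Plxna3* met in 31 of 58 pPCx nuclei and 4 of 17 AON nuclei, and *Sema5a* and *Plxna1* in 25 of 58 and 2 of 17. *Sema7a* and *Plxnc1* met in 7 of 17 AON (41.2%) and 4 of 58 pPCx nuclei (6.90%). For *Sema5b*, both genes were present in 5 AON nuclei with *Plxna3* and in 3 with *Plxna1*.

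Other pairs had a ligand without its receptor. *Plxnd1* had 1 UMI in AON and 3 UMIs in pPCx projection neurons and 0 in GABAergic nuclei, although its ligand gene *Sema3e* stood at 88.2, 179 and 171 CPM in them. *Sema4d* stood at 55.0 and 55.2 CPM in projection neurons, where *Plxnb1* had 1 and 2 UMIs. *Plxnb2*, the partner of *Sema4c* and *Sema4g*, stood at 3.79 and 3.88 CPM. Members under 10 UMIs over both sums of projection neurons were *Sema3b*, *Sema3g*, *Sema4a*, *Sema4c*, *Plxnb1*, *Plxnb3* and *Plxnd1*. A low count at this depth does not show that these genes are silent.

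The genes that act with these receptors were counted in the same way. Of 29 further genes of the pathway (collapsin response mediators, kinases, GTPase regulators, adhesion molecules and *Vegfa*), 24 had enough UMIs and 22 were within 2-fold between the libraries, as were 10739 of all 13515 genes. *Vegfa*, whose product also binds neuropilins, was higher in AON projection neurons (66.4 against 28.5 CPM), and *Dpysl5*, a collapsin response mediator, was higher in pPCx projection neurons (17.1 against 40.1 CPM). Their median log2 ratio was -0.17. Between high and low nuclei of the pPCx library, 3 of 24 (12.5%, against 12.3% of all genes) were at least 2-fold higher in high nuclei and 0 in low nuclei, with *Dpysl5* at 61.4 and 12.8 CPM. Within the AON library, 4 of 25 (16%, against 15.9% of all genes) were at least 2-fold higher in projection neurons and 5 (20%, against 18.5%) in GABAergic nuclei, so these shares were near those of all genes.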

How the data were processed

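The authors deposited raw counts of UMIs per gene and nucleus, made with Cell Ranger. The matrix header gives version 3.1.0, and the submitters' processing notes name no mouse build. The protocol in the labels and the study's methods describe sorting of GFP-positive nuclei and 10x Genomics 3' libraries. The 188 AON and 74 pPCx barcodes held 2963064 and 2412067 UMIs. All 31 members were among the 30934 of 31055 identifiers found in GENCODE M21 (GRCm38), which gave the coordinates, and no nucleus with 1000 or more genes exceeded 5% mitochondrial UMIs. Sums over nuclei were scaled to CPM (per 1000000 UMIs), and log2 ratios had 0.5 UMI added to each sum. Genes needed 10 UMIs over both sums and were counted when 2-fold or more apart. Sums have exact Poisson intervals, shares exact Clopper-Pearson intervals and ratios exact conditional binomial intervals, all at 95%. UMIs count molecules, but intervals leave out spread between animals. A fold against 0 is a bound computed with 3 UMIs per group. No doublet caller was run. Members, lists, classes and the rule for named genes (members above the minimum, and pathway genes called between the libraries) were chosen with earlier results of these data known. Scripts ran on Python 3.11.15 with numpy 2.4.6, scipy 1.17.1 and matplotlib 3.10.9 and were tested on drawn counts. Alternatives varied the class minimum, depth, weights, gene minimum, UMIs added, gene filter, fold, scaling and the line for *Ebf1* and *Cntn6*.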

Additional observations from a re-analysis of the deposited data

Results flagged for a closer look

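Barcodes under 1000 genes entered no comparison but held UMIs of the set. The 86 such AON barcodes (median depth 775 UMIs) held 296 UMIs of the members in 50 barcodes, at 3127 CPM (2781 to 3504) against 2646 CPM above the filter. *Plxna4* gave 82 of them, *Nrp1* had 3 and *Nrp2* had 0. The 11 pPCx barcodes held 29 UMIs, 18 of them of *Sema6d*.

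Projection neurons against GABAergic nuclei gave opposite directions in the 2 libraries for 3 members, and the difference was not tested because the pPCx library has 2 GABAergic nuclei. The log2 ratio of *Sema5b* was 3.55 for AON and -3.05 for pPCx, where the GABAergic value rests on 6 UMIs in 1 nucleus. *Sema3e* had -0.96 and 4.42, and *Sema5a* had -0.63 and 5.08. The latter 2 had 0 UMIs in the pPCx GABAergic nuclei, so their pPCx values depend on the 0.5 UMI added.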

How the results depend on the processing

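No paired analysis was possible because nothing in the labels pairs the libraries, of which each site gave 1. Options added after the data had been seen were leaving out the deepest AON nucleus and using only Ebf1/Cntn6-low pPCx nuclei. Over all options, 82 of the counts and shares stayed within 1.5 times or inside their interval and 15 moved. The counts below stand without the shares of all genes under each option, which can change as well. Between the libraries, the 6 members higher in the AON library became 3 at 4-fold. The 3 members higher in the pPCx library became 5 with equal weight of nuclei or thinning to 8000 UMIs, 7 at 1.5-fold, and 6 with all filtered nuclei, without nuclei over 3 times the median depth or without the deepest AON nucleus. *Nrp1* reversed with all filtered nuclei, to a log2 ratio of -0.12, as GABAergic and glial nuclei then enter the AON sum. Against GABAergic nuclei, the 12 members became 5 with thinning, and the 3 became 6 without nuclei over 3 times the median depth or without the deepest AON nucleus. *Plxnb1* reversed to 0.33 without the class minimum; the cause was not tested. Against remaining nuclei, the 10 became 6 with thinning. In the pPCx library, members higher in high nuclei numbered 2 to 3 and those higher in low nuclei 4 to 6 over the options run, and lines at 500 and 2000 CPM left both counts as they were. *Nrp1* in *Nrp2*-positive nuclei was 13.6% thinned, 29.6% with every UMI and 5.13% when 2 UMIs were needed, and in *Nrp2*-negative nuclei 64.3%, 100% with every UMI and 100% thinned to 15000 UMIs. Depth limits what is seen in shallow nuclei, and 7 members had too few UMIs in projection neurons for any comparison there.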
